A study of Saccharomyces cerevisiae with 9 samples.

Results

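The ATP synthase core and stalk subunits are 10 nuclear genes of baker's yeast, Saccharomyces cerevisiae, whose products make up most of the rotary enzyme that synthesises ATP at the inner mitochondrial membrane. They were taken by gene symbol from the annotation of the Affymetrix Yeast Genome S98 array: ATP1, ATP2, ATP3, ATP4, ATP5, ATP7, ATP14, ATP15, ATP16 and ATP20. All 10 were found among the 5656 genes that the array measured, and all 10 were bright enough to enter the tests, which covered 4537 genes. None was read by a probe set (the group of short oligonucleotides for one transcript) whose suffix marks possible cross-hybridisation.

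Every culture carried deletions of both CTH1 and CTH2, so the controls lack these proteins too. The strain received the plasmid pRS416 without an insert (vector group), pRS416-CTH1 (CTH1 group) or pRS416-CTH2 (CTH2 group), and there were 3 arrays in each group and 9 in all. Cells were grown for about 6 hours at 30 °C, to exponential phase, in medium without uracil that held 100 µM bathophenanthroline disulfonate (BPS), which binds iron and keeps it from the cells. No iron-replete culture is among them, and the sources do not name the promoters of the plasmid genes. Whether replicates came from separate transformants is unstated. The p-values here set group differences against the spread among these cultures, and they may not extend to other cultures or transformants. Each array reads RNA from a whole culture, so less of an mRNA in every cell and less in some of the cells cannot be told apart.

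ATP synthase has a catalytic head, F1, joined to a membrane part, Fo, by a rotating central stalk and a static peripheral stalk. Protons that return through Fo turn the central stalk, and the turning drives ATP synthesis in the head. The enzyme holds no iron, whereas the respiratory chain that pumps the protons works through heme and iron-sulfur clusters. Cth1 and Cth2 are zinc-finger proteins that recognise AU-rich stretches of mRNAs and speed up their decay, and many of their known targets encode mitochondrial proteins that use iron.

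Values are MAS5 signals, in which the authors had scaled each array to a common level. CTH1 mRNA was bright only in the CTH1 arrays (231 to 592, at most 14.3 elsewhere) and CTH2 mRNA only in the CTH2 arrays (3389 to 4498, at most 10.2 elsewhere), as the labels state. One array stood apart for short mRNAs. In CTH1 replicate 3, the 148 protein-coding genes whose coding length did not exceed 300 nucleotides had a median deviation from their 9-array means that was -0.85 on the log2 scale relative to the 3003 genes longer than 900 nucleotides. On the other 8 arrays this contrast lay between -0.16 and 0.27. The CTH1 differences of the members are therefore given with and without that array. Control probes for 25S ribosomal RNA read 367 to 1010 with CTH2, 3349 to 4649 with vector and 884 to 6588 with CTH1, and the part of this gap in the differences below was not tested.

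No ATP synthase gene was called in any comparison. With CTH2, 9 of the 10 genes had lower mean signals than with the empty plasmid, by small amounts: the median difference was -0.29 on the log2 scale, where all tested genes had a median of 0.07 and 40.9% of them lay below 0. ATP3, the γ subunit of the central stalk, was nearest to a call (-0.58, limma adjusted p = 0.34). With CTH1, 7 of the 10 had lower means and the median was -0.11, against 0.06 for all tested genes, of which 41.4% lay below 0. Only ATP15, the ε subunit, was far from 0 there (-1.67, limma adjusted p = 0.588). Without CTH1 replicate 3, the array with low signals for short mRNAs, its difference was -0.94 (limma adjusted p = 0.613). Both remaining CTH1 arrays still lay below the vector arrays for it.

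The test was limma, fitted to all 9 arrays and adjusted over all 4537 genes by the Benjamini-Hochberg method, with a call at an adjusted p under 0.05. It called 0.287% of the genes in CTH2 against vector, 0% in CTH1 against vector and 0.022% in CTH2 against CTH1. The plasmid gene CTH2 itself counts in both shares of the CTH2 comparisons and is the only gene called in CTH2 against CTH1. The plasmid gene CTH1 had too low a mean signal over the 9 arrays to be tested. Without CTH1 replicate 3 the test called 0.331%, 0% and 0.0661%, again with no member among them. At an unadjusted p under 0.05, 1 member passed in each comparison, where 9.37%, 6.92% and 7.49% of all tested genes did. Both comparisons against vector use the same 3 vector arrays and are not independent. For 7 of the 10 members the 95% interval of the CTH2 effect stayed above -1, so a halving was within the interval only for ATP3, ATP15 and ATP20.

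**Figure D1:**
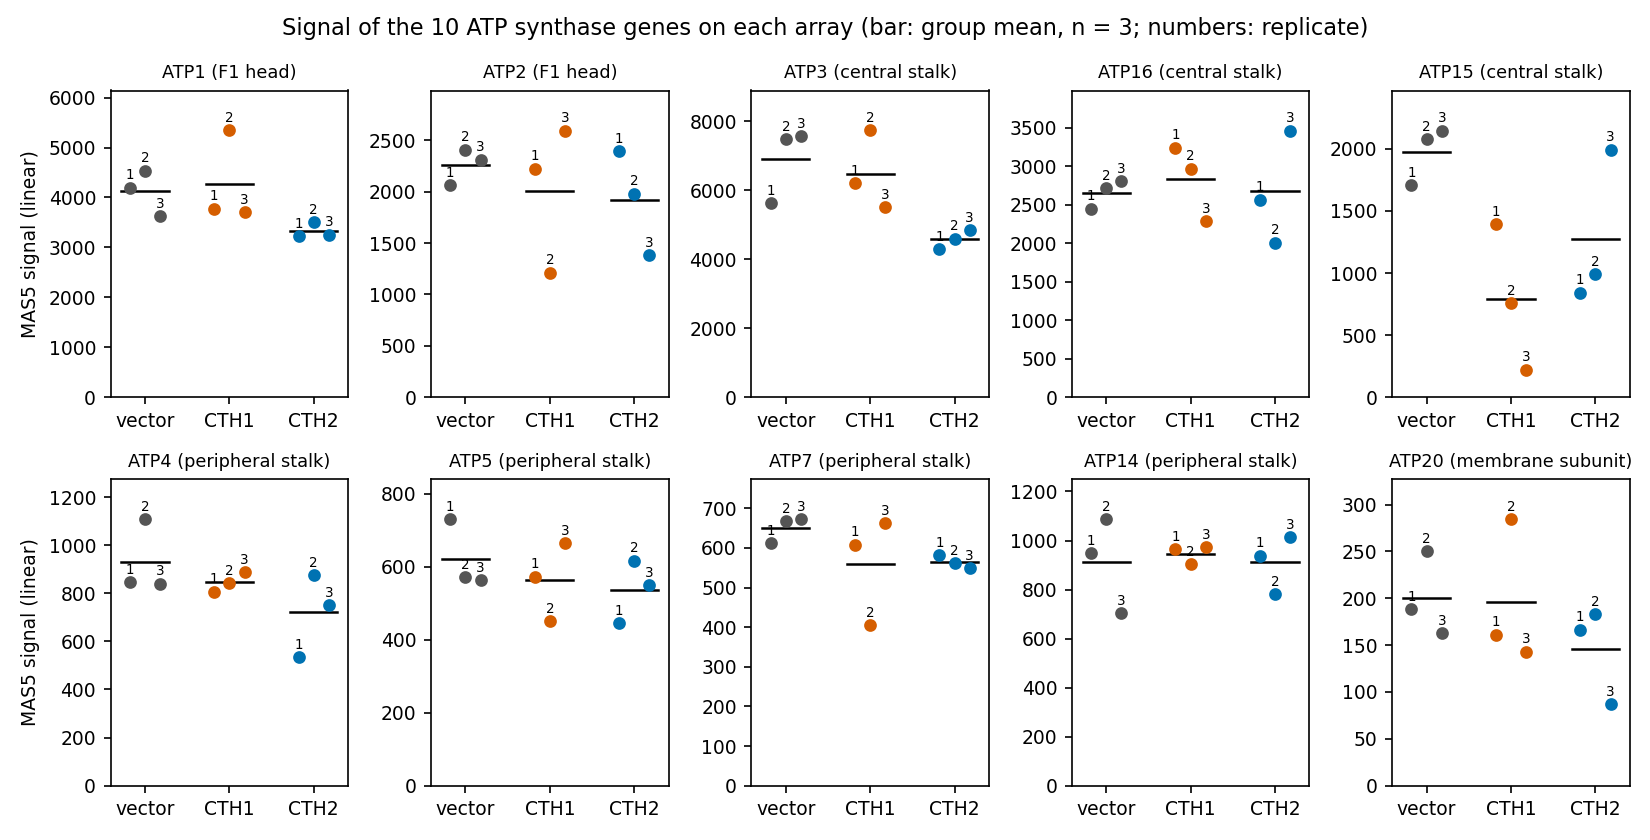
MAS5 signal (linear scale, from 0) of each of the 10 genes on the 9 arrays, with points for the vector, CTH1 and CTH2 arrays numbered by replicate and a bar at each group mean (n = 3). The CTH2 arrays of ATP1, ATP3 and ATP7 lie wholly below the vector arrays, and ATP15 is lowest in CTH1 replicate 3, at 222.

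The F1 head is a ring of α and β subunits, encoded by ATP1 (YBL099W) and ATP2 (YJR121W), and the catalytic sites lie mainly on β. ATP1 had signals of 4196, 4536 and 3630 in the vector arrays, 3778, 5342 and 3701 in the CTH1 arrays and 3229, 3506 and 3252 in the CTH2 arrays. The 3 CTH2 arrays lay below all other arrays and close to each other, with a log2 mean of 11.70 ± 0.07 against 12.00 ± 0.16 with vector (SD, n = 3). The difference was -0.30 (SE 0.20, 95% interval -0.73 to 0.12, limma adjusted p = 0.67). For CTH1 it was 0.04 (interval -0.39 to 0.46, limma adjusted p = 0.972), and 0.13 without CTH1 replicate 3.

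ATP2 behaved differently from its partner across the arrays. Its signals were 2062, 2409 and 2311 with vector, 2225, 1213 and 2597 with CTH1 and 2397, 1980 and 1384 with CTH2. One array of each plasmid group was low, CTH1 replicate 2 and CTH2 replicate 3, and the remaining arrays overlapped the vector arrays. The differences were -0.24 (SE 0.29, limma adjusted p = 0.879) for CTH1 and -0.27 (SE 0.29, limma adjusted p = 0.799) for CTH2. The CTH1 difference ranged from -0.46 without CTH1 replicate 3 to 0.09 without CTH1 replicate 2, and without CTH2 replicate 3 the CTH2 difference was -0.05.

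The central stalk is built of γ (ATP3, YBR039W), δ (ATP16, YDL004W) and ε (ATP15, YPL271W). ATP3, whose product is the shaft that turns inside the head, had signals of 5633, 7487 and 7580 with vector and 6217, 7736 and 5503 with CTH1. With CTH2 they were 4294, 4596 and 4843, so the 3 CTH2 arrays lay below the 6 others. The CTH2 mean was 0.67 times that of vector (log2 difference -0.58, SE 0.20, 95% interval -1.01 to -0.15, unadjusted p = 0.0116, limma adjusted p = 0.34). Over 21 alternative settings this difference ran from -0.72 to -0.50 and its limma adjusted p was never under 0.103. For CTH1 the difference was -0.09 (SE 0.20), and 0.02 without replicate 3.

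ATP16, the δ subunit, had signals of 2447, 2714 and 2804 with vector, 3238, 2967 and 2282 with CTH1 and 2566, 2005 and 3462 with CTH2. All groups overlapped. The differences were 0.08 (SE 0.23, limma adjusted p = 0.95) for CTH1 and -0.02 (SE 0.23, limma adjusted p = 0.995) for CTH2. Without CTH1 replicate 3, both CTH1 arrays lay above the vector arrays and the difference was 0.23 (SE 0.24).

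ATP15 encodes the smallest of the 10 proteins, and its coding length of 189 nucleotides gives 62 residues. Its signals were 1706, 2081 and 2149 with vector, 1395, 760 and 222 with CTH1, and 843, 990 and 1994 with CTH2. All 3 CTH1 arrays lay below the vector arrays, but they spread over a log2 SD of 1.35, the widest of any member in any group. The CTH1 difference was -1.67 (SE 0.52, 95% interval -2.80 to -0.54, unadjusted p = 0.00726, limma adjusted p = 0.588). Without CTH1 replicate 3 it was -0.94 (SE 0.35, unadjusted p = 0.0182, limma adjusted p = 0.613), with both remaining arrays still below vector. After a correction for coding length it was -1.53 (limma adjusted p = 0.514). The correction was a smooth curve over all coding lengths, and it also moved ATP14 (375 nucleotides) from 0.07 to 0.22. Whether it removed the low signal of the shortest genes was not tested.

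ATP15 was lowest in CTH1 replicate 3, the array with low signals for short mRNAs. The log2 signal of ATP15 in CTH1 replicate 3 minus the mean of the other CTH1 arrays was -2.21, where the 148 short protein-coding genes had a median of -0.84 and 134 of them lay below 0. Only 4 of those 148 genes, ATP15 included, were as low. The CTH2 array with the highest ATP15 signal, replicate 3, also had the highest short-gene deviation of all arrays (0.27), and the part of transcript length in these values was not tested. For CTH2 the difference was -0.73 (SE 0.52, limma adjusted p = 0.71), and -0.81 after the correction for coding length (limma adjusted p = 0.566). In the fit without CTH1 replicate 3 the spread estimate for ATP15 was smaller and the same CTH2 difference had an SE of 0.31 (unadjusted p = 0.0346, limma adjusted p = 0.453).

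**Figure D2:**
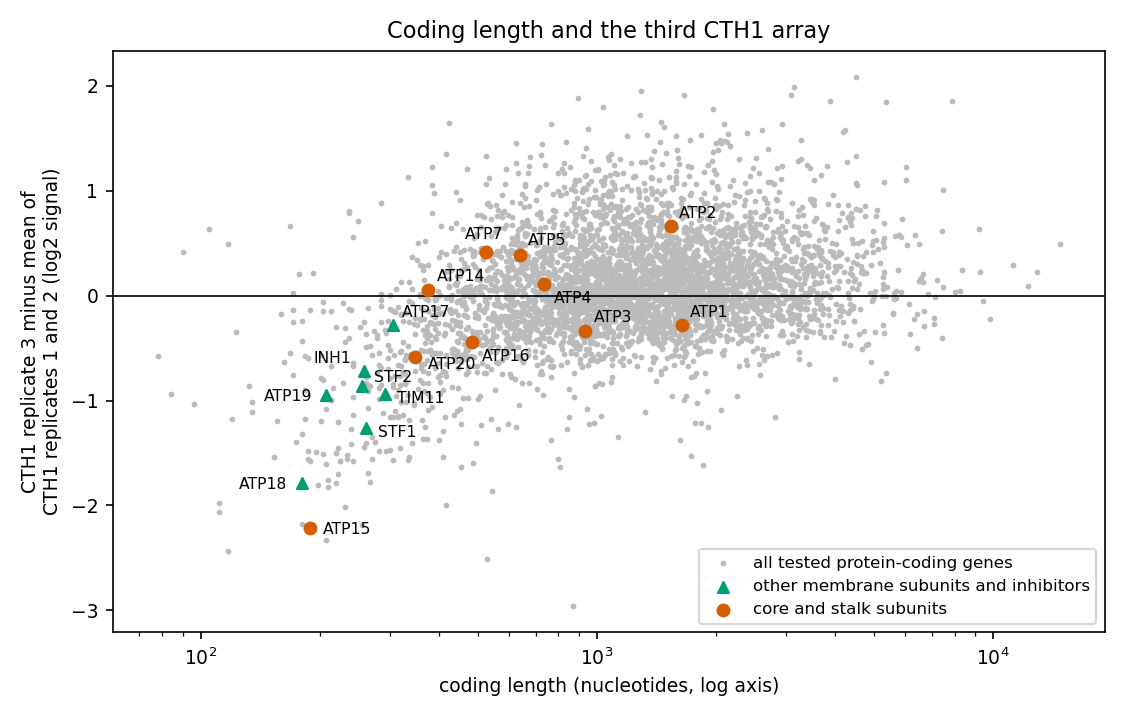
Log2 signal of CTH1 replicate 3 minus the mean of CTH1 replicates 1 and 2 (vertical axis) against coding length in nucleotides (horizontal log axis) for the tested protein-coding genes, with the core and stalk subunits as circles and the other membrane subunits and inhibitor proteins as triangles. ATP15 is at -2.21, ATP18 at -1.78 and ATP2, one of the longest members, at 0.66.

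The peripheral stalk holds the head still while the central stalk turns. ATP4 (YPL078C) encodes its subunit b, which anchors the stalk in the membrane. Its signals were 847, 1109 and 840 with vector, 806, 842 and 887 with CTH1 and 536, 874 and 751 with CTH2. The CTH2 arrays overlapped the vector arrays, and the difference was -0.39 (SE 0.22, 95% interval -0.87 to 0.09, limma adjusted p = 0.611). For CTH1 it was -0.13 (SE 0.22, limma adjusted p = 0.915), and -0.17 without CTH1 replicate 3.

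ATP5 (YDR298C) encodes the oligomycin sensitivity conferring protein, which links the stalk to the top of the head. Its signals were 731, 571 and 563 with vector, 573, 452 and 665 with CTH1 and 445, 617 and 549 with CTH2, and the groups overlapped. The differences were -0.15 (SE 0.22) for CTH1 and -0.21 (SE 0.22) for CTH2, with limma adjusted p of 0.900 and 0.793. The CTH1 difference was -0.28 without CTH1 replicate 3 (SE 0.25, limma adjusted p = 0.798).

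ATP7 (YKL016C), subunit d, was the member with the smallest spread within the vector and CTH2 groups. Its signals were 611, 667 and 673 with vector and 582, 562 and 549 with CTH2, so each CTH2 signal was just below the lowest vector signal. With CTH1 they were 608, 405 and 662. The CTH2 mean was 0.87 times that of vector (log2 difference -0.20, SE 0.21, 95% interval -0.67 to 0.26, limma adjusted p = 0.796). The CTH1 difference was -0.25 (SE 0.21, limma adjusted p = 0.836), and without CTH1 replicate 3, where both arrays lay below vector, -0.39 (SE 0.24, limma adjusted p = 0.788).

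ATP14 (YLR295C), subunit h, was read by 2 probe sets, and the brighter one was used. It had signals of 949, 1088 and 703 with vector, 964, 903 and 972 with CTH1 and 938, 782 and 1013 with CTH2. The CTH1 and CTH2 arrays all fell inside the vector range, and the differences were 0.07 for CTH1 (0.05 without CTH1 replicate 3) and 0.01 for CTH2, both with an SE of 0.21. The dimmer probe set gave 0.43 and 0.24, and its signal in vector replicate 3 was 430 against 866 to 1009 in the other vector arrays.

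ATP20 (YPR020W) encodes subunit g, a membrane subunit at the interface between the enzymes of a dimer, and it had the lowest signal of the 10 genes. It stood at 188, 251 and 163 with vector, 161, 285 and 143 with CTH1 and 166, 183 and 87.2 with CTH2. CTH2 replicate 3 was the lowest array and the groups overlapped. The CTH2 difference was -0.51 (SE 0.34, 95% interval -1.24 to 0.22, limma adjusted p = 0.675), and -0.18 without that array. The CTH1 difference was -0.08 (SE 0.34), and 0.12 without CTH1 replicate 3.

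**Figure D3:**
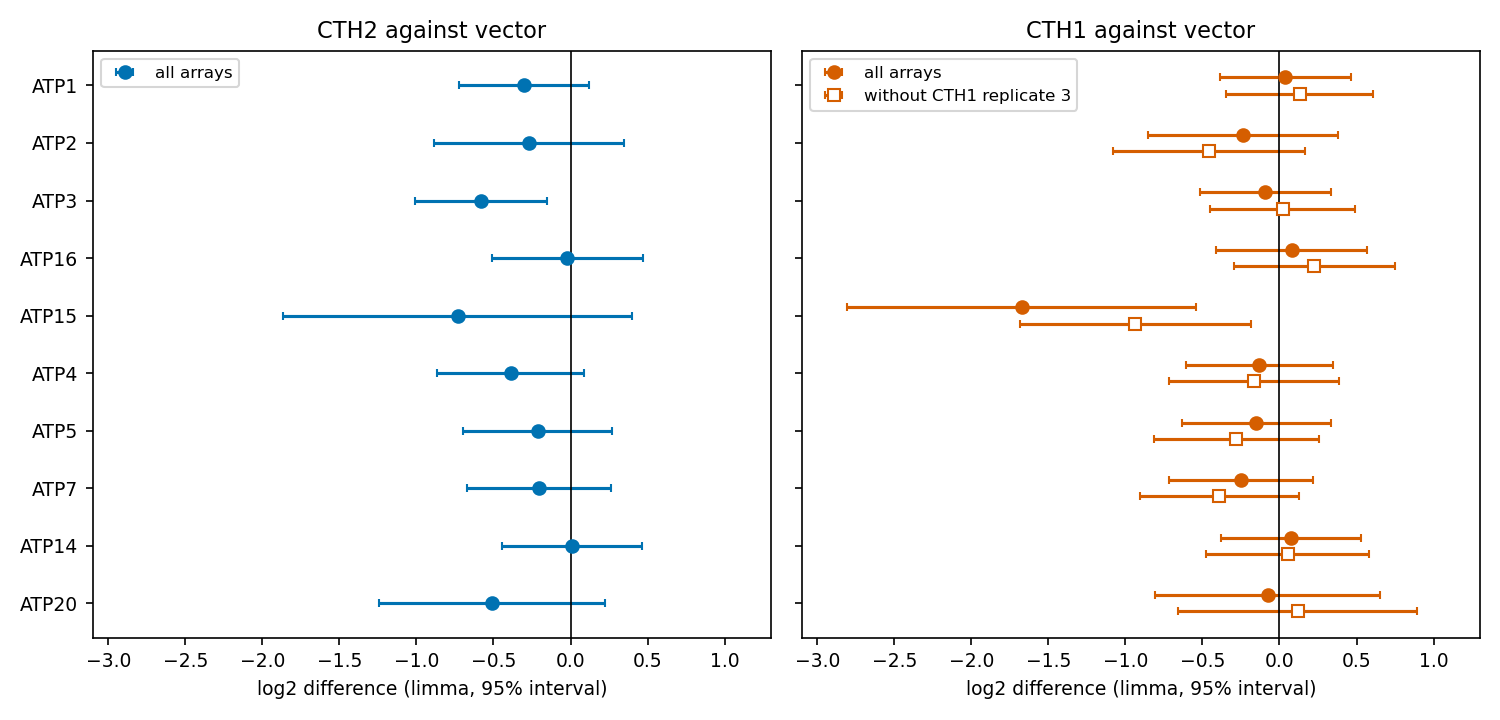
Log2 difference (horizontal axis) of each of the 10 genes from the vector arrays with its 95% interval from limma, for CTH2 at left and CTH1 at right, where open squares leave out CTH1 replicate 3. The intervals of ATP3 with CTH2 and of ATP15 with CTH1 do not include 0 before adjustment, and the 18 other intervals with all arrays do.

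Counted by position of the arrays, the CTH2 arrays lay wholly below the vector arrays for 3 of 10 members (ATP1, ATP3 and ATP7) and wholly above for none, where 6.99% of all tested genes lay below and 9.48% above. The CTH1 arrays lay wholly below vector for ATP15 alone, where 3.37% of all tested genes did. Without CTH1 replicate 3 they lay below for ATP7 and ATP15 (7.36% of all tested genes) and above for ATP16 (12.4%). Then 5 members had means below vector and 5 above, where 44.1% of all tested genes had means below, and the median difference was -0.07. Removing CTH1 replicate 3 thus left the median near its value and moved ATP15 most.

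The direct comparison sets the CTH2 arrays against the CTH1 arrays. The plasmid genes themselves read 231 to 592 (CTH1) and 3389 to 4498 (CTH2), on different probe sets. A difference in the effect of the proteins and one in their amounts therefore cannot be told apart. CTH2 arrays lay wholly below CTH1 arrays for ATP1 and ATP3, where 7.19% of all tested genes did, and these members were also below vector (3.22% of all tested genes lay below both). Both also lay below the remaining CTH1 arrays without CTH1 replicate 3, where 11.6% of all tested genes did. ATP3 differed by -0.49 between CTH2 and CTH1 (SE 0.20, 95% interval -0.92 to -0.06, unadjusted p = 0.0276, limma adjusted p = 0.577) and ATP1 by -0.34 (SE 0.20, interval -0.76 to 0.08, limma adjusted p = 0.765). Without CTH1 replicate 3 these were -0.60 (limma adjusted p = 0.322) and -0.43 (limma adjusted p = 0.55). For ATP15 the difference was 0.94 (SE 0.52, interval -0.19 to 2.07), which shrank to 0.20 (SE 0.35) without that array. The 7 other members differed by -0.43 to 0.05, and every one of their intervals included 0.

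Signals of the members did not move as 1 unit across the 9 arrays. Over the 45 pairs of members the median Pearson correlation of log2 signals was 0.01, and 24 pairs had a correlation above 0. ATP2 and ATP7 were the most alike (0.88), while ATP1 and ATP2, partners in the head, had a correlation of -0.35. ATP1 and ATP3 had 0.76. These values are descriptions over 9 arrays that share groups, plasmids and scaling.

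The tested genes whose profile was most like the mean of the 10 members were HEM4 (Pearson r = 0.98), a heme synthesis enzyme, SFL1 (0.96), a transcriptional repressor of flocculation genes, DPM1 (0.95), an enzyme that makes a sugar donor for glycosylation, SNN1 (0.94) and MAP2 (0.91), a methionine aminopeptidase. They are the 5 highest values among all tested genes outside the list, each over 9 arrays, and such a search returns high values by itself. The mean was of centred log2 signals not scaled per gene, so ATP15, with the widest spread, weighed most on it. In CTH1 replicate 3 that mean was -0.20, and 0.04 without ATP15.

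The remaining nuclear-encoded membrane subunits included ATP18, ATP19, TIM11 and ATP17, which help to form the membrane part and its dimers. None was called. ATP18, with a coding length of 180 nucleotides, differed by -0.82 (SE 0.39, limma adjusted p = 0.727) with CTH1 but by -0.23 without CTH1 replicate 3, where its signal was 356 against 1044 and 1440 in the other CTH1 arrays. With CTH2 it differed by -0.45 (SE 0.39), and its 3 CTH2 arrays lay below the vector arrays. ATP19 (207 nucleotides) differed by -0.79 with CTH1, -0.48 without that array and -0.50 with CTH2, and its vector arrays ran from 200 to 634. TIM11 and ATP17 stayed within 0.28 of 0 in both comparisons against vector, and without CTH1 replicate 3 their CTH1 differences were 0.24 and 0.37.

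Of the inhibitor proteins, INH1, which blocks ATP hydrolysis when the proton gradient collapses, had CTH1 and CTH2 arrays below all vector arrays. It differed by -0.60 (SE 0.25, limma adjusted p = 0.712) with CTH1, -0.36 without replicate 3 and -0.32 (SE 0.25, limma adjusted p = 0.737) with CTH2. STF1 had differences of -0.36 with CTH1 and -0.08 with CTH2, and STF2 of 0.32 and 0.59 (limma adjusted p = 0.569 for CTH2). Leaving out CTH1 replicate 3, the CTH1 difference of STF1 was 0.063, with the opposite sign, and that of STF2 was 0.60. The mRNAs of all 3 are under 300 nucleotides of coding length, and CTH1 replicate 3 minus the mean of the other CTH1 arrays was -1.26 to -0.72 on the log2 scale for them.

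Subunits encoded in mitochondrial DNA were poorly covered. OLI1, the subunit of the proton-driven ring, had signals of 8419, 7106 and 10432 with vector, 8562, 8990 and 7083 with CTH1 and 6446, 6967 and 6706 with CTH2. The CTH2 arrays lay below the others by small margins, with a difference of -0.35 (SE 0.19, limma adjusted p = 0.607) from vector. ATP6, the subunit that channels protons to the ring, differed by 0.90 (SE 0.38, limma adjusted p = 0.712) with CTH1 and 0.77 (SE 0.38, limma adjusted p = 0.561) with CTH2, and vector replicate 2 was low at 150 against 354 and 446. The CTH1 difference of ATP6 was 0.74 without CTH1 replicate 3. ATP8 was too dim to test.

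Of 12 assembly and expression factors, 8 were bright enough to test and none was called. ATP11, the chaperone that prepares β subunits for the head, differed most, with CTH2 signals of 669, 642 and 450 below the vector signals of 782, 1106 and 1018. The difference was -0.73 (SE 0.23, 95% interval -1.22 to -0.24, unadjusted p = 0.00699, limma adjusted p = 0.248). ATP25, AEP1 and NCA3 lay between -0.35 and 0.27 in both comparisons against vector.

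Among the carriers that bring ADP and phosphate to the enzyme, PET9, the major ADP/ATP carrier, had a profile close to that of ATP3 (Pearson r = 0.98 over 9 arrays, a pair picked after its values were seen). Its signals were 4603, 5794 and 5618 with vector, 4586, 6045 and 4048 with CTH1 and 3424, 3758 and 3855 with CTH2. The CTH2 arrays lay below all others, and the difference from vector was -0.53 (SE 0.20, unadjusted p = 0.019, limma adjusted p = 0.429). AAC3, the carrier isoform used at low oxygen, differed by 0.89 with CTH2 (SE 0.38, unadjusted p = 0.0365, limma adjusted p = 0.492). The phosphate carriers MIR1 and PIC2 differed by -0.25 and 0.07.

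Beside the iron-containing respiratory chain, the ATP synthase genes had a smaller median difference, and the ranges overlapped. For CTH2, the 6 tested genes for subunits that bind heme or iron-sulfur clusters had a median of -0.97. In all 6 every CTH2 array was below every vector array, where 6.99% of all tested genes were. SDH2, which carries the iron-sulfur clusters of complex II, fell from signals of 1177, 1903 and 2132 with vector to 699, 612 and 430 with CTH2 (-1.57, SE 0.26, limma adjusted p = 0.028). The 17 tested iron-free subunits of the respiratory complexes had a median of -0.83, and for 12 of them the CTH2 arrays lay below vector. They include subunits of cytochrome c oxidase, a complex with no gene among the 6, so the lists differ in their complexes too. The 17 did not all differ in 1 direction: COX5B, the cytochrome c oxidase isoform used at low oxygen, had all CTH2 arrays above vector (0.83, limma adjusted p = 0.181). COX12, COX13 and COX7 differed by -0.11, -0.21 and -0.30, within the range of the ATP synthase members (-0.73 to 0.01). Also in that range were COR1 (-0.38), QCR10 (-0.40), QCR9 (-0.53), COX8 (-0.65) and the iron-binding CYC1 (-0.55). All these genes were picked after their values were seen. Among the 17, COX6 of cytochrome c oxidase fell (-1.21, SE 0.20, limma adjusted p = 0.028). Over 21 alternative settings the SDH2 call held in 13 and the COX6 call in 12, with limma adjusted p up to 0.157 and 0.140. Settings in which both were lost included those without vector replicate 2, without vector replicate 3 and without any 1 of the CTH2 arrays. With a floor at the 25th percentile and with the replicate number as a block, only 1 gene was called in CTH2 against vector. At least 1 of the SDH2 and COX6 calls was thus lost in each of those settings too. The iron-free QCR7 of complex bc1 (-0.97, limma adjusted p = 0.0774) and COX4 (-0.90, limma adjusted p = 0.082) had differences as large as those of the iron-binding CYT1 (-0.99, limma adjusted p = 0.135) and RIP1 (-0.88, limma adjusted p = 0.187).

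With CTH1 the order of the medians was similar, at -0.63 for the iron-binding subunits, -0.35 for the iron-free subunits of the respiratory complexes and -0.11 for ATP synthase. Leaving out CTH1 replicate 3 gave -0.77, -0.30 and -0.07. SDH2 differed by -1.23 (limma adjusted p = 0.499), QCR8 by -1.18 (limma adjusted p = 0.408) and CYC1 by -0.93 (limma adjusted p = 0.588), and none was called. Without that array these were -1.23, -1.10 and -0.87. The vacuolar ATPase, a related rotary enzyme that pumps protons into the vacuole and holds no iron, had medians of 0.06 with CTH2 and 0.10 with CTH1 over its 14 tested genes. For none of them did the arrays of a plasmid group lie wholly below or above the vector arrays. Among all tested genes 6.99% lay below and 9.48% above with CTH2, and 153 and 314 of 4537 with CTH1. At such shares a list of 14 genes would hold few of them. VMA1, VMA5, VMA2 and VMA6 differed by -0.16 to 0.46 in those comparisons. Differences between these lists were not tested and are given as descriptions.

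**Figure D4:**
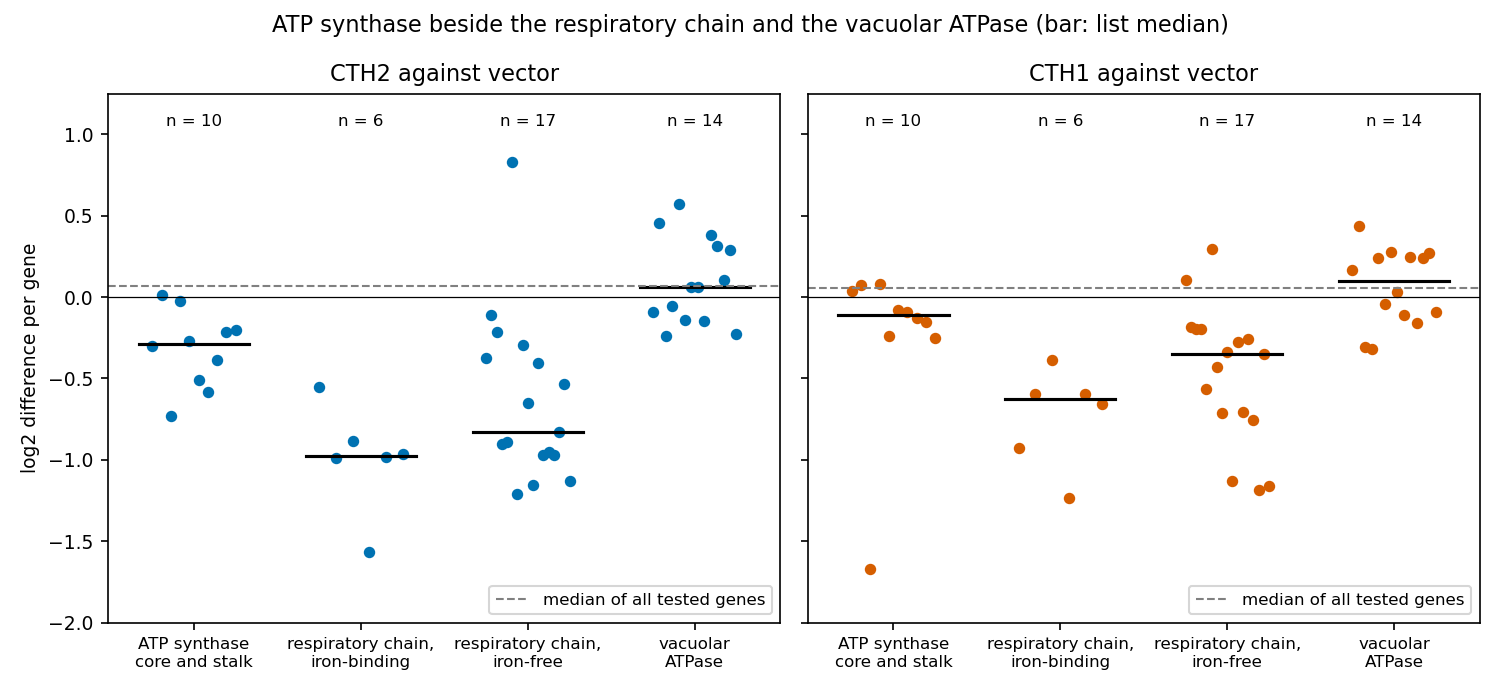
Log2 difference per gene (vertical axis) from the vector arrays, for CTH2 at left and CTH1 at right, with a bar at each list's median and a dashed line at the median of all tested genes. With CTH2 the medians are -0.29 for the ATP synthase genes, -0.97 and -0.83 for the iron-binding and iron-free respiratory subunits and 0.06 for the vacuolar ATPase.

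HAP4, the activating subunit of the HAP complex that drives transcription of respiratory genes including ATP synthase genes, had signals of 146, 227 and 131 with vector and 91, 95 and 135 with CTH2. The groups overlapped, and the difference was -0.63 (SE 0.26, unadjusted p = 0.033, limma adjusted p = 0.49). For CTH1 it was -0.10 (SE 0.26). HAP2, HAP3 and HAP5, which bind DNA, differed by -0.30 to 0.53 in the comparisons against vector, and none was called. The lowest of these values was HAP3 with CTH1, which was 0.081 without CTH1 replicate 3, where its signal was 689 against 1867 and 1223 in the other CTH1 arrays.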

How the data were processed

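The authors deposited linear intensity values for every probe set of each array, computed with MAS5 per the submitters' processing notes, whose software version was not found. Trimmed means of 499.8 on all arrays show a common scaling. Of 9335 probe sets, 6504 had 1 gene in the platform annotation and matched the RefSeq annotation of assembly R64, giving 5656 genes. Signals were floored at the 10th percentile (43.2) and log2-transformed, the brightest probe set per gene was kept, and 4537 genes with a log2 mean above the 25th percentile (98.4) were tested. The test was limma 3.58.1 in R 4.3.3, with an intensity trend, all 9 arrays in 1 model, no covariates and Benjamini-Hochberg adjustment over all tested genes; the procedure was checked on simulated data. Groups and replicate numbers come from the sample titles. Coding length is the length of the gene in the annotation, which for 97.1% of the protein-coding genes is a multiple of 3. Members and lists were chosen with earlier results of these data known. Named were all members, called list genes or otherwise up to 4 per list by unadjusted p, and the 5 genes most like the members' mean. Alternatives changed the scaling, floor, filter, groups fitted, variance model, array weights, replicate block, length correction and probe set rule, and left out each array in turn. The length classes used to describe CTH1 replicate 3 were chosen after seeing the data. Arrays carry no read depth, and their number limits the precision. No sequence is printed, because sequence tables were not used here.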

Additional observations from a re-analysis of the deposited data

How the results depend on the processing

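No member was called under any of 21 alternatives, and the smallest limma adjusted p of any member was 0.103 (ATP3 with CTH2, array weights). Of 627 values of single members, 594 kept their direction and 33 changed sign. For CTH1 against vector these were ATP1 (-0.019 with common median scaling, -0.057 with array weights, -0.047 with coding-length correction, -0.13 to 0.13 leaving out 1 array), ATP20 (0.085 with coding-length correction, -0.38 to 0.12), ATP2 (-0.46 to 0.091), ATP3 (-0.23 to 0.020), ATP4 (-0.20 to 0.0017), ATP14 (-0.10 to 0.21) and ATP16 (-0.027 to 0.23). For CTH2 against vector they were ATP14 (-0.082 with common median scaling, -0.0021 with quantile normalization, -0.038 with array weights, -0.17 to 0.15 leaving out 1 array) and ATP16 (-0.22 to 0.17). For CTH2 against CTH1 they were ATP7 (-0.066 with array weights, -0.039 with coding-length correction, -0.17 to 0.19 leaving out 1 array), ATP2 (-0.36 to 0.19), ATP5 (-0.21 to 0.066), ATP14 (-0.14 to 0.044) and ATP16 (-0.30 to 0.091).

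The median over the members moved from -0.29 to -0.38 for CTH2 against vector with common median scaling, where all tested genes had -0.03 in place of 0.07, and from -0.08 to -0.19 for CTH2 against CTH1 with coding-length correction. Leaving out 1 array it ran from -0.34 to -0.23 for CTH2 against vector, -0.21 to -0.012 for CTH1 against vector (without vector replicate 3 and 2) and -0.17 to -0.045 for CTH2 against CTH1. The 13 genes called in CTH2 against vector became 1 with a floor at the 25th percentile, 2 with no filter, 22 with only these groups in the fit, 75 with array weights, 1 with the replicate number as a block (replicate block), 23 with coding-length correction and 1 to 26 leaving out 1 array (1 without vector replicate 2 or 3 or CTH2 replicate 1 or 2, 2 without CTH2 replicate 3, 6 without vector replicate 1 and 26 without CTH1 replicate 2). The 1 gene called in CTH2 against CTH1 became 2 with a floor at the 25th percentile, 3 with no filter, 0 with the filter at the median, 26 with array weights and 1 to 3 leaving out 1 array, and CTH1 against vector had 0 to 1 (1 without CTH1 replicate 1). That 1 gene was the plasmid gene CTH2 itself (log2 difference 6.49), whose mean signal did not pass the filter at the median. The cause of the other shifts was not tested. Same-numbered arrays did not deviate alike throughout (correlations of deviations from -0.58 to 0.21 over 9 same-numbered pairs, 2 of them over 0.1), and the replicate block changed no call of a member. Deviations sum to 0 within each group, so these correlations are not independent and cannot decide whether the arrays were paired. Pairs with different numbers ran from -0.53 (CTH1 replicate 2 with CTH2 replicate 1) to 0.54 (CTH1 replicate 2 with CTH2 replicate 3). Some deviations were thus shared by arrays of different groups, and their source was not tested.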
